A study of Mus musculus with 75 samples.

Results

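The genes described here fell at the third passage of mouse skin fibroblasts and were back at the seventh. They were chosen from the 16 passage RNA-seq libraries by normalised read counts (CPM, a gene's reads scaled to a common library total), taken as log2(CPM + 1) and averaged over the 4 libraries of each passage. A gene was kept when its mean CPM was 5 or more at P1 and at P7 and its mean log2(CPM + 1) was at least 0.8 higher at P1 than at P3 and at least 0.8 higher at P7 than at P3. Of 24984 genes in the files, 9773 passed the CPM floor and 30 met the whole rule. The mirrored rule, genes at least 0.8 higher at P3 than at both P1 and P7, found 17. Because the P1, P3 and P7 values chose the members, their passage values are given as a description without a test, and the members are tested in the perturbation libraries and the ATAC-seq samples, which the rule did not use. Tests between passages are given for gene lists, where the calls of the members follow from the rule and those of the other genes are counted apart.

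The passage series came from untreated skin fibroblasts of 2-month-old female C57BL/6 mice, with 4 RNA-seq libraries at each of P1, P3, P5 and P7, and ATAC-seq, which maps open chromatin, in 4 samples at P1 and 3 at each later passage. Cultures of C57BL/6 skin fibroblasts were also changed by lentivirus, the knockdowns under puromycin selection: E2f4 overexpression under doxycycline in P4 cells against a vector control (2 libraries each), E2f4 knockdown in P3 cells with the hairpin sh1 against its non-targeting control (3 each), Tead1 knockdown with sh3 and with sh4 against a shared control (3 each), and Atf3 knockdown in pre-senescent cells with sh5 and with sh6 against a shared control (3 each). Fibroblasts of newborn and of 2-month-old mice served for these manipulations, and the labels do not say which gave a library, so the perturbation levels are not set against the passage levels. The labels do not say that replicates were separate animals or cultures, so all p-values below measure the spread between these libraries, which may be technical.

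Replicative senescence is the lasting arrest that primary fibroblasts reach after repeated division, and senescent fibroblasts release chemokines, proteases and other factors, together called the senescence-associated secretory phenotype. Freshly isolated skin fibroblasts also carry the marks of tissue dissociation and of other skin cells, which are lost in the early passages. The proteins that fibroblasts secrete act on the matrix and on the immune cells around them.

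Many of the members encode secreted or surface proteins. Ccl2, Ccl8, Ccl11 and Cxcl5 are chemokines. Cpxm1, Tinagl1, Mmp10, Masp1, Sfrp1, Stc1, Ism1, C1qtnf2 and Penk encode secreted enzymes, matrix proteins, signal antagonists and peptide precursors. Cd24a, Csf1r, Tspan11, Bace2, Aqp5, Paqr7 and Slc22a17 encode membrane proteins, and Myh11, Pacsin3 and Sncg cytoskeletal, membrane-binding and synaptic-type cytosolic proteins. Atp5k, Ndufa1, Rps28, Polr2l, Naa38 and Hist1h4i encode small subunits of ATP synthase, the NADH dehydrogenase, the ribosome, RNA polymerase II, an N-terminal acetyltransferase and the nucleosome. 4930413G21Rik has no assigned role.

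RefSeq promoter sequence (GRCm38.p6) was at hand for 17 of the 30. It was not at hand for Bace2, Ccl11, Ccl2, Cd24a, Csf1r, Cxcl5, Ism1, Masp1, Myh11, Naa38, Penk, Sfrp1 and Stc1. The 250 bases before the outermost start site are shown for 5 members whose chromatin or perturbation values are described below. They are written 5′ to 3′ on the strand of the gene, with capitals marking every match to the motifs searched. Ccl8 lies on chromosome 11 (chr11:82114935-82115184, plus strand), Cpxm1 on chromosome 2 (chr2:130397630-130397879, minus strand), Aqp5 on chromosome 15 (chr15:99590778-99591027, plus strand), Tinagl1 on chromosome 4 (chr4:130175123-130175372, minus strand) and Mmp10 on chromosome 9 (chr9:7502092-7502341, plus strand).
Ccl8: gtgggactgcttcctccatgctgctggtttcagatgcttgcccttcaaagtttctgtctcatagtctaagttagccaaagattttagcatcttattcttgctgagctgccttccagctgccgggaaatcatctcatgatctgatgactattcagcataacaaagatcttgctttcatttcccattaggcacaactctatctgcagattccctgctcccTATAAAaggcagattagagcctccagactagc
Cpxm1: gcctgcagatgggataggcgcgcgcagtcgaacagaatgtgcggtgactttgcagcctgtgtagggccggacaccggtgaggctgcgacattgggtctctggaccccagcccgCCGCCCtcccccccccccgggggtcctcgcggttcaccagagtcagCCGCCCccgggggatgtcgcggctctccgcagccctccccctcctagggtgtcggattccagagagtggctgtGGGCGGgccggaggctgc
Aqp5: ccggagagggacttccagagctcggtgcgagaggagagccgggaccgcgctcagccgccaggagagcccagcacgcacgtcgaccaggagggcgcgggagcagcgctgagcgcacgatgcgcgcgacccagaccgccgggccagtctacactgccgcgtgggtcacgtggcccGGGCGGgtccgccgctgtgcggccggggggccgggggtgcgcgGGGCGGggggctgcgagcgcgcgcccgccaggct
Tinagl1: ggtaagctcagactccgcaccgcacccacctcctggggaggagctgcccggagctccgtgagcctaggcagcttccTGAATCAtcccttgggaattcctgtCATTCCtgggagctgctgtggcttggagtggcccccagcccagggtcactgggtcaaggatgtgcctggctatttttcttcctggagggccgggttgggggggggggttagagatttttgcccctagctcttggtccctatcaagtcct
Mmp10: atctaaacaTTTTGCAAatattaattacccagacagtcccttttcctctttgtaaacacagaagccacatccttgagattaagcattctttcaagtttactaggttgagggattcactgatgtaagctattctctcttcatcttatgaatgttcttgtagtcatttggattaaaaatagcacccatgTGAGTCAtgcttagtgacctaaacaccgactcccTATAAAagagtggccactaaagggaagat

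The capitals in Ccl8 mark a TATA box (TATAAA), 32 to 27 bases before the start. Those in Cpxm1 and Aqp5 mark GC boxes (GGGCGG or its complement). In Tinagl1 they mark an AP-1 motif (TGANTCA) and a TEAD motif (GGAATG on the other strand), and in Mmp10 a C/EBP motif (TTGCNNAA on the other strand), an AP-1 motif and a TATA box. Both strands of the 250 bases were searched for these and for NF-kB, E2F (TTTNNCGC), the interferon response element and ETS (CCGGAA), and no matches overlapped in the sequences shown. Counting any promoter of a gene, the AP-1 letters stood in 2 of the 17 members, Mmp10 and Tinagl1, against 5.17% of the 7916 genes over the CPM floor that had a promoter and 6.75% of all 32851 promoters. TATAAA stood in 3 of the 17 (Ccl8, Hist1h4i and Mmp10) against 7.33% of those genes and 12.4% of all promoters. GGGCGG stood in 10 of the 17 against 68% and 32.7%, GGAATG in 2 against 12.4% and 12.6%, TTGCNNAA in 2 against 8.6% and 9.56%, TTTNNCGC in 1 against 8.7% and 4.28%, and CCGGAA in 1 against 27.2% and 12%. No member promoter held the NF-kB motif (0.392% of the genes) or the interferon response element (2.94%). A match is only a match of letters.

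**Figure D1:**
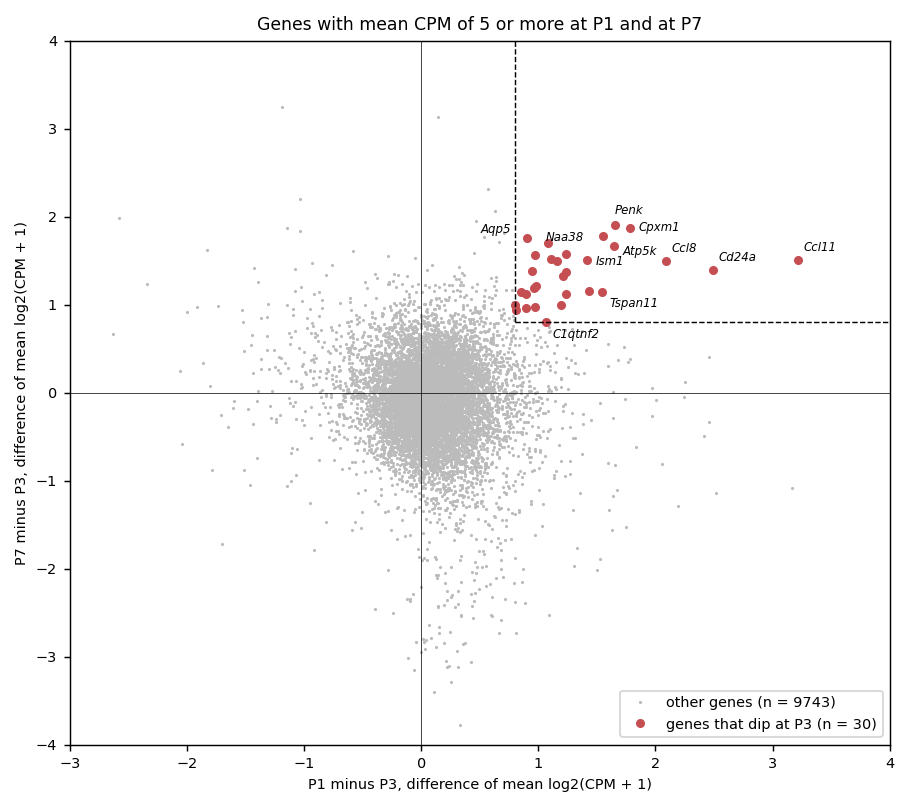
Each dot is a gene with mean CPM of 5 or more at P1 and at P7; the horizontal axis is P1 minus P3 and the vertical axis P7 minus P3, both as differences of mean log2(CPM + 1). The 30 members (red) lie inside the dashed corner set by the rule at 0.8, with Ccl11 farthest to the right at 3.21 and Penk highest at 1.91; 1 of the 9743 other genes lies outside the axes.

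The 30 members had a median drop of 1.18 from P1 to P3 and a median rise of 1.38 from P3 to P7 on the log2(CPM + 1) scale, where the 9773 genes over the floor had medians of 0.08 and -0.09. The lesser of the 2 differences ran from 1.78 in Cpxm1 down to 0.80 in Pacsin3. Just inside the rule stood Pacsin3 (0.80), C1qtnf2 (0.81), Rps28 (0.81) and Masp1 (0.85), and just outside it Mdfi (0.79), Ccdc85b (0.79), Inafm1 (0.78) and Ndufa2 (0.77). In 26 of the 30 members every P3 library was below every P1 and every P7 library, which was so in 4.70% of the genes over the floor; the rule fixes most of that count, and nothing is read from it. The exceptions were Cxcl5, Myh11, 4930413G21Rik and Tspan11. At P7, 24 members were within 0.5 of their P1 level, Aqp5, Hist1h4i and Stc1 were more than 0.5 above it, and Ccl8, Ccl11 and Cd24a more than 0.5 below it. Levels are not compared between genes, because CPM is not scaled by gene length.

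**Figure D2:**
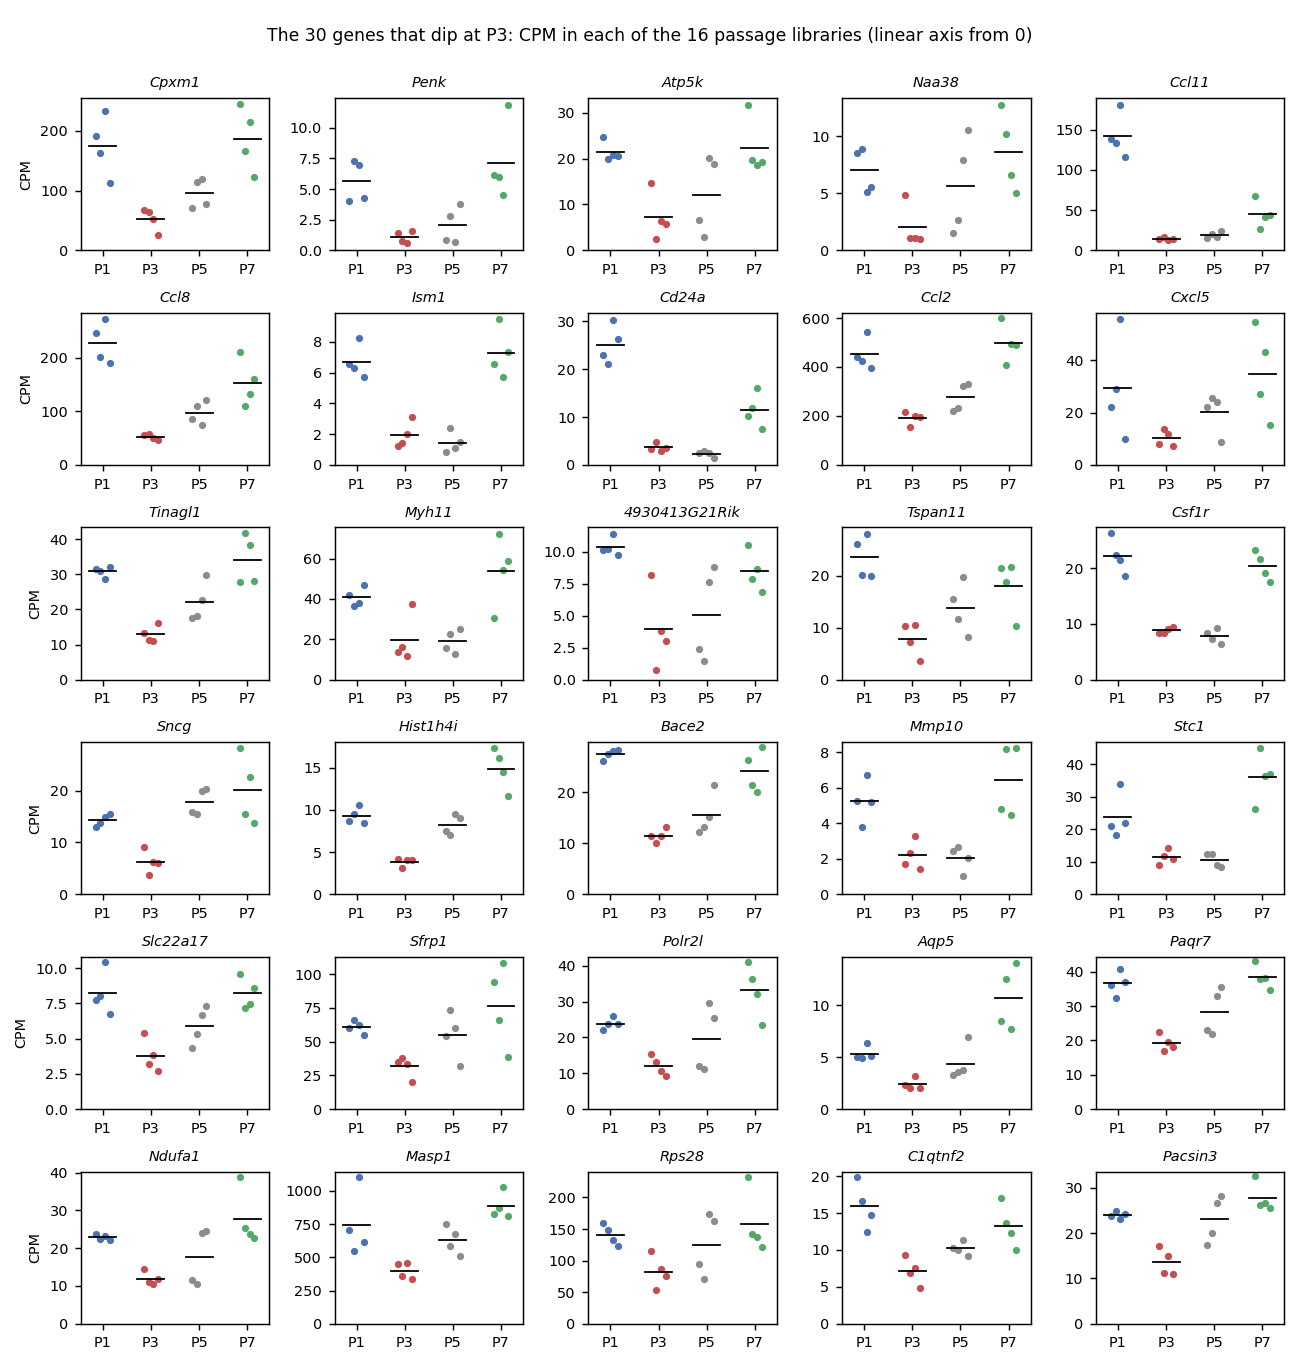
CPM (vertical axes, linear from 0) of each member in the 4 libraries of each passage (points), with the mean of the passage (bar), in order of the lesser difference. In 26 of the 30 panels all P3 points lie under all P1 and P7 points; in Csf1r, Cd24a, Ism1, Mmp10 and Stc1 the P5 mean lies below the P3 mean.

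Among the chemokines, Ccl11 (eotaxin-1, which draws eosinophils) had the deepest drop. Its 4 libraries gave 139, 133, 181 and 116 CPM at P1 and 13.9, 16.5, 12.9 and 13.9 at P3, then 15.3, 20.7, 16.7 and 24.4 at P5 and 67.4, 26.1, 41.2 and 43.6 at P7. The return was partial: P7 stood 1.5 above P3 and 1.71 below P1. Ccl8 (MCP-2, a ligand of monocytes and T cells) ran at 247, 202, 273 and 190 CPM at P1 and 55.5, 57.8, 50.3 and 46.1 at P3, then 85.7, 110, 75.3 and 121 at P5 and 210, 110, 133 and 161 at P7. All P5 libraries of Ccl8 were above all P3 libraries, and the P1 and P7 ranges overlapped.

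Ccl2 (MCP-1, the main monocyte attractant of the senescent secretion) was the most regular of the 4. Its CPM was 440, 425, 545 and 397 at P1 and 217, 155, 198 and 194 at P3, then 222, 231, 324 and 332 at P5 and 600, 409, 494 and 489 at P7. It was back at its P1 level, with P7 minus P1 of 0.14. Cxcl5, an attractant of neutrophils, had 22.3, 28.9, 55.9 and 10.1 CPM at P1 and 8.10, 13.7, 11.96 and 7.22 at P3, then 22.3, 25.7, 24.3 and 8.76 at P5 and 54.7, 27.2, 43.1 and 15.1 at P7. Replicate 4 was the lowest Cxcl5 library at all of these passages, and its P1 value lay inside the P3 range.

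Ccl2, Ccl11 and Ccl8 are neighbours in the chemokine cluster of chromosome 11 (GRCm38.p6, chr11:82035577-82037452, chr11:82057832-82062955 and chr11:82115185-82116799, all on the plus strand). Ccl7 lies between Ccl2 and Ccl11 and was no member: its mean CPM was 348 ± 46.3 at P1 and 295 ± 53.3 at P3, then 359 ± 42.9 at P5 and 542 ± 75.6 at P7 (SD, n = 4). It rose from P3 to P7 (log2 fold change 0.97 ± 0.13 (SE), edgeR adjusted p = 4.46e-06) and did not pass the same test between P1 and P3 (-0.12 ± 0.13, edgeR adjusted p = 0.481). Ccl12, also in the cluster, had a mean of at most 0.364 CPM at any passage.

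Of the 20 chemokine genes on the list used, 13 were tested, 7 were called lower at P3 than at P1 and 5 higher at P7 than at P3, both counts with the 4 members in them. Of the 9 that were no members, 3 were called lower at P3 and 2 higher, and 1 higher at P7 and 2 lower; a call here is an adjusted p under 0.05 and a change over 2-fold in edgeR's quasi-likelihood test. Over all 13442 genes tested, 6.58% were called lower at P3 and 4.44% higher at P7. Both calls together were met by 0.439% of the genes and by 20 of the 30 members, a count that the rule sets and from which nothing is read. Other chemokines had other courses. Cxcl12, which retains stem and immune cells, went from 534 ± 111 CPM at P1 to 173 ± 54.6 at P3 and 77.0 ± 16.8 at P7 (SD, n = 4), and Cxcl14, a chemokine of epithelium and fibroblasts, from 18.5 ± 5.04 to 39.4 ± 11.9 and 187 ± 60.4. In whole cultures fewer expressing cells and less RNA per cell cannot be told apart.

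Cpxm1, a secreted carboxypeptidase-like protein without known enzyme activity, headed the list. Its 4 libraries gave 192, 164, 233 and 112 CPM at P1 and 66.7, 63.5, 51.9 and 25.3 at P3, then 70.1, 114, 119 and 77.2 at P5 and 245, 167, 215 and 123 at P7. Masp1, the protease that starts the lectin pathway of complement, had a mean CPM of 744 ± 251 at P1 and 400 ± 61.7 at P3, then 630 ± 104 at P5 and 884 ± 99.3 at P7 (SD, n = 4). Of the 15 other complement and acute-phase genes tested, 9 were called lower at P3 than at P1 and none higher at P7 than at P3; Masp1 had differences of 0.85 and 1.15 by the rule.

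Tinagl1, a matrix glycoprotein of the basement membrane type, had 31.6, 30.9, 28.8 and 32.1 CPM at P1 and 13.2, 11.2, 11.1 and 16.2 at P3, then 17.4, 18.1, 22.6 and 29.8 at P5 and 27.8, 41.8, 38.2 and 28.1 at P7. Mmp10 (stromelysin-2, a matrix protease) stood near the CPM floor, at 5.25 ± 1.18, 2.2 ± 0.834, 2.04 ± 0.715 and 6.43 ± 2.06 CPM over the 4 passages (SD, n = 4). Of the 20 other matrix proteases and inhibitors tested, 2 were called lower at P3 and 2 higher at P7, and none had both calls. Sfrp1, an antagonist of Wnt ligands, went through 61.0 ± 4.53, 31.6 ± 7.99, 54.9 ± 17.3 and 76.7 ± 31.1 CPM, and the P7 range (38.2 to 109) reached almost down to the P3 range. Among the 18 other Wnt genes tested, 1 had both calls, and it was Wif1.

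Stc1, a secreted glycoprotein tied to calcium and hypoxia, was among the members that turned late. It had 20.9, 18.3, 34.0 and 21.9 CPM at P1 and 8.95, 11.9, 14.2 and 10.8 at P3, then 12.3, 12.3, 9.10 and 8.37 at P5 and 26.2, 44.97, 36.3 and 37.0 at P7. Ism1, a secreted angiogenesis inhibitor, showed the same late return from 1.95 ± 0.836 CPM at P3 and 1.44 ± 0.675 at P5 to 7.28 ± 1.62 at P7 (SD, n = 4). Penk, the precursor of the enkephalins, went through 5.62 ± 1.73, 1.09 ± 0.495, 2.03 ± 1.52 and 7.12 ± 3.26 CPM. C1qtnf2, a C1q-type adipokine, was the member with the smallest return, 7.17 ± 1.81 at P3 and 13.2 ± 2.98 at P7.

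Csf1r and Cd24a are surface genes that other skin cells also use. Csf1r, the receptor that keeps macrophages alive, had 26.4, 22.4, 21.6 and 18.6 CPM at P1 and 8.43, 8.34, 9.16 and 9.39 at P3, then 8.33, 7.32, 9.22 and 6.38 at P5 and 23.2, 21.7, 19.1 and 17.6 at P7. Of the 14 other macrophage markers, 13 were called lower at P3 than at P1, and from P3 to P7 8 were called lower and 1, Cd53, higher. The defining markers stayed low where Csf1r returned: Cd68 went from 40.7 ± 7.18 CPM at P1 to 2.80 ± 0.378 at P3 and 1.71 ± 0.563 at P7, Itgam from 19.5 ± 3.66 to 1.38 ± 0.342 and 0.0532 ± 0.0675, and Tyrobp from 10.99 ± 1.44 to 0.686 ± 0.268 and 0.141 ± 0.281 (SD, n = 4). Summed over all 15 markers the list held 428 to 650 CPM at P1 and 64.7 to 88.0 at P3, then 47.9 to 54.9 at P5 and 111 to 131 at P7, and the P7 sum holds Cd53 at 75.5 ± 6.04 and Csf1r itself.

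Cd24a, a small anchored glycoprotein of epithelial, immune and progenitor cells, had 22.9, 21.03, 30.4 and 26.2 CPM at P1 and 3.27, 4.75, 2.99 and 3.54 at P3, then 2.54, 2.98, 2.43 and 1.42 at P5 and 10.2, 11.9, 16.1 and 7.52 at P7. It had the lowest P5 position of the members and ended 1.10 under its P1 level. The 11 keratinocyte markers summed to 79.4 to 461 CPM at P1 and 6.06 to 9.32 at P3, then 6.41 to 12.4 at P5 and 13.9 to 17.6 at P7, with 8 of the 9 tested called lower at P3 and 2 (Dsp and Perp) higher at P7. Their part in the course of Cd24a was not tested. The 11 fibroblast markers summed to 25700 to 27730 CPM at P1 and 31820 to 41320 at the later passages. At P1 this sum held Col1a1 at 9757 ± 355 and Col1a2 at 6100 ± 257 CPM (SD, n = 4). Of the 11, 2 were called lower at P3 than at P1 and 1 higher, and none was called between P3 and P7. Dcn went from 1083 ± 186 CPM at P1 to 418 ± 72.3 at P3 and 268 ± 97.5 at P7 (SD, n = 4).

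Myh11, the smooth-muscle myosin heavy chain, was uneven at P3. It had 42.0, 36.6, 38.0 and 47.1 CPM at P1 and 13.5, 16.2, 11.6 and 37.6 at P3, then 15.6, 22.7, 12.8 and 24.9 at P5 and 30.7, 72.5, 54.4 and 58.6 at P7. Replicate 4 at P3 lay inside the P1 range and above the lowest P7 library. Acta2 and Tagln, other contractile genes, were higher at P3 than at P1 (log2 fold changes 0.79 ± 0.16 and 1.03 ± 0.15 (SE), edgeR adjusted p = 0.000814 and 3.09e-05), and of the 13 smooth-muscle contractile genes tested besides Myh11 1, Ldb3, was called both lower at P3 and higher at P7.

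Bace2, a relative of beta-secretase, had 26.2 to 28.4 CPM at P1 and 10.1 to 13.1 at P3, then 12.3 to 21.5 at P5 and 19.97 to 28.9 at P7. Its P3 libraries lay below all P1 and P7 libraries. The other membrane proteins are described by their means over P1, P3, P5 and P7. Tspan11, a tetraspanin, had 23.6, 7.91, 13.8 and 18.1 CPM, Aqp5, a water channel of glands, 5.35, 2.41, 4.38 and 10.7, Paqr7, a membrane progestin receptor, 36.7, 19.3, 28.4 and 38.4, and Slc22a17, the receptor of lipocalin-2, 8.23, 3.76, 5.90 and 8.20. Aqp5 went farthest above its start, with P7 minus P1 of 0.85. Pacsin3, an endocytic adaptor, had 24.0, 13.6, 23.1 and 27.7 CPM, and Sncg, gamma-synuclein, 14.3, 6.31, 17.9 and 20.02.

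At P5 the members stood at different points of the way back. The P5 position, the share of the P3 to P7 rise on the log2(CPM + 1) scale that was reached at P5, was over 0.5 in 14 members, between 0 and 0.5 in 11 and under 0 in 5. The highest were Sncg (0.928), Pacsin3 (0.727), Tspan11 (0.668), Sfrp1 (0.636) and C1qtnf2 (0.598), and the lowest Cd24a (-0.346), Ism1 (-0.181), Csf1r (-0.149), Stc1 (-0.0701) and Mmp10 (-0.0628). All P5 libraries exceeded all P3 libraries in 9 of the 30 members (Cpxm1, Ccl8, Ccl2, Tinagl1, Sncg, Hist1h4i, Aqp5, Masp1 and Pacsin3), where 12.2% of the genes over the floor did; the P3 values helped to choose the members, so nothing is read from this count.

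In 6 members, 4 of them with very short transcripts, single libraries of a passage lay far apart. Atp5k, subunit e of ATP synthase, had 24.7, 19.9, 20.8 and 20.7 CPM at P1 and 14.6, 2.48, 6.30 and 5.63 at P3, then 6.68, 2.78, 20.2 and 18.9 at P5 and 31.8, 19.6, 18.7 and 19.3 at P7. Naa38, an auxiliary subunit of the NatC acetyltransferase, had 8.49, 8.90, 5.10 and 5.52 at P1 and 4.84, 1.10, 1.11 and 0.939 at P3, then 1.53, 2.64, 7.88 and 10.6 at P5 and 12.8, 10.2, 6.63 and 4.99 at P7. In both genes replicate 1 was the highest P3 library, and at P5 replicates 3 and 4 lay inside the P7 range while replicates 1 and 2 lay inside the P3 range. The same split at P5 was seen in Rps28 (94.6, 70.6, 173 and 162 CPM), Ndufa1 (11.51, 10.6, 24.2 and 24.5), Polr2l (12.02, 11.3, 29.6 and 25.4) and 4930413G21Rik (2.42, 1.42, 7.62 and 8.83).

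Atp5k (320 exonic bases), Rps28 (396), Hist1h4i (403), Ndufa1 (494), Ccl8 (511) and Naa38 (518) have 600 or fewer exonic bases, which is 6 of 30 members against 1.14% of the annotated genes over the floor. The other genes of that length took 1.25% to 1.46% of the counts at P1 and 1.12% to 1.21% at P3, then 1.23% to 1.56% at P5 and 1.24% to 1.92% at P7, so every P3 library was below every P1 and P7 library. At P5 the shares were 1.33%, 1.23%, 1.56% and 1.53% in replicates 1 to 4, the same split as in the 6 genes above, and replicate 1 at P7 had the highest share. The median log2 fold change of the 181 other short genes tested was -0.10 from P1 to P3 and 0.48 from P3 to P7, where genes of over 2000 exonic bases had 0.02 and -0.08. Exonic GC moved the same way: genes of 54% GC or more had medians of -0.14 and 0.22, and genes under 45% 0.14 and -0.30. The members had a median exonic length of 1702 bases and GC of 53.2%, against 3307 bases and 50.3% over the floor. The length limit was chosen after the values were seen, and its part in the dip was not tested.

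**Figure D3:**
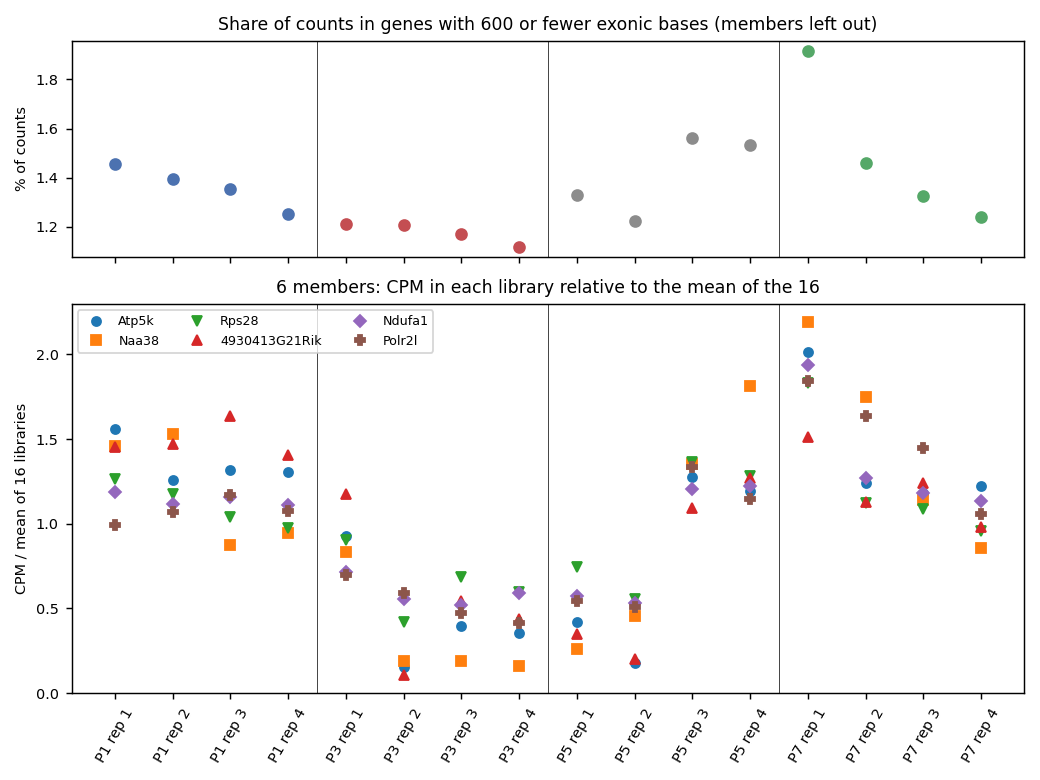
Upper panel: the share of each passage library's counts (percent) that fell in genes of 600 or fewer exonic bases, members left out. Lower panel: CPM of 6 members in each library relative to the gene's mean of the 16 libraries; in the libraries P5 rep 3 and rep 4 all 6 lie above 1 and in P5 rep 1 and rep 2 all 6 lie below it, and the share is 1.53% to 1.56% against 1.23% to 1.33%.

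The other genes of these complexes had a lesser difference under 0.8, which the choice of the members fixes. The 74 other cytosolic ribosomal protein genes over the floor had median P1 minus P3 and P7 minus P3 differences of 0.04 and 0.11, with both above 0 in 42, and the nearest of them to the rule was Rps29, with a lesser difference of 0.65 against 0.81 for Rps28. The 35 other NADH dehydrogenase subunit genes had medians of 0.14 and 0.38, both above 0 in 24, with Ndufa2 (0.77) nearest. The 14 other ATP synthase genes had 0.13 and 0.14, both above 0 in 8, with Atp5e (0.64) nearest, and the 10 other RNA polymerase II genes 0.27 and -0.07, both above 0 in 4. Rps28, Atp5k and Hist1h4i have near-identical copies elsewhere in the genome, and Naa38, 4930413G21Rik, Ndufa1 and Masp1 overlap a gene on the opposite strand (Tmem88, Rbbp6, Rnf113a1 and Rtp4), which counting without strand could not tell apart, so these values are less certain.

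When the median deviation of genes of the same length and GC class was subtracted in each library, an alternative chosen after the data were seen, 28 genes met the rule and 22 of the 30 members were among them. Aqp5, C1qtnf2, Masp1, Ndufa1, Pacsin3, Paqr7, Rps28 and Slc22a17 were not. Leaving out 1 of the 12 P1, P3 and P7 libraries at a time gave 26 to 44 members, and 22 of the 30 were members each time. When all libraries of 1 replicate number were left out of the choice, the 41, 30, 32 and 32 genes chosen were both lower at P3 than at P1 and higher at P7 than at P3 in the left-out libraries for 41, 29, 32 and 32 of them. In those left-out libraries the 0.8 limit was passed on both sides by 18, 21, 25 and 23. The left-out libraries may be technical replicates of those used, and the share of all genes is not given. Nothing is therefore read from the left-out counts.

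The ATAC-seq samples give a readout that the rule did not use. For each gene the strongest peak within 1000 bases of a start site was taken and ranked among all peaks of its sample by the caller's p-value, as a percentile, with 0 for no peak. Members had weaker promoter peaks than other genes, with medians per sample of 74.4 to 77.4 at P1 and 67.9 to 70.3 at P3, then 69.0 to 73.1 at P5 and 65.3 to 67.0 at P7, where the genes over the floor had 89.0 to 91.8 throughout. The members' median was thus lower at P3 than at P1 in every sample and lower still at P7. In 12 of the 30 members all 3 P3 samples lay below all 4 P1 samples, against 20.2% of the genes over the floor. By the peaks' fold enrichment, in place of the percentile, this was so in 5 members, against 8.84%. In 3 of the 30 all P3 samples lay below all P7 samples, against 11.8%. Only Aqp5 had both, against 2.73%. In 10 members all P7 samples lay below all P1 samples (31.6% of the genes), and in 4, which were Penk, Bace2, Polr2l and Ndufa1, all P7 samples lay below all P3 samples (13.5%).

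Aqp5 had percentiles of 19.7, 12.8, 31.4 and 10.4 at P1 and 0, 0 and 0.674 at P3, then 35.8, 33.7 and 7.72 at P5 and 14.0, 29.6 and 8.34 at P7. Its weak promoter peak was near absent at P3 and present before and after. That 1 of the 30 members had this course is near the 2.73% of the genes over the floor, so nothing is read from it. The exact permutation test of the means gave p = 0.0571 for P3 against P1 and p = 0.1 for P7 against P3 (two-sided; the smallest p values that 4 against 3 and 3 against 3 samples allow are 0.0286 and 0.1). Mmp10 and Paqr7 were the other members with all P3 samples below all P7 samples, at 80.2 to 81.95 against 83.7 to 93.4 and at 87.2 to 90.5 against 94.4 to 97.8.

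Other promoters were lower at P3 and remained below their P1 level at P7. Tspan11 went from 83.3 to 88.4 at P1 to 55.8 to 63.3 at P3 and 59.0 to 75.4 at P7, and Sfrp1 from 89.9 to 91.2 to 74.0 to 80.0 and 72.8 to 84.0. Ism1 went from 72.8 to 77.2 at P1 to 55.9 to 69.3 at P3 and 54.2 to 61.4 at P7. Cpxm1, Ccl8, Cd24a, Masp1 and Pacsin3 also lay lower in all P3 samples than in all P1 samples; in these 8 genes the exact permutation test gave an unadjusted p = 0.0286, the smallest the design allows. Naa38 was the only member with all P1 samples below all P3 samples (5.84% of the genes), from 82.4 to 85.7 at P1 to 88.4 to 92.7 at P3, with the same unadjusted and adjusted p. From P3 to P7 no test could give a p under 0.1.

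The chemokine promoters differed among themselves. Ccl11 had a peak in 4 of 4 P1 samples (percentiles 19.98, 42.8, 65.4 and 36.9), in none at P3 or P5, and in 1 of 3 at P7 (23.2). Ccl8 had a strong peak throughout, 90.4 to 93.5 at P1 and 85.6 to 88.6 at P3, then 76.4 to 88.5 at P5 and 82.2 to 86.7 at P7. Ccl2 had 83.4 to 89.8, 80.1 to 84.1, 81.8 to 88.3 and 81.9 to 86.7. Csf1r had no promoter peak in the 4 P1 samples and one at P7 in all 3 (49.8 to 65.6), with peaks in 2 of 3 samples at P3 and at P5. A called peak at its start site was thus absent from all P1 samples and present in all P7 samples, although its RNA was high in both.

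**Figure D4:**
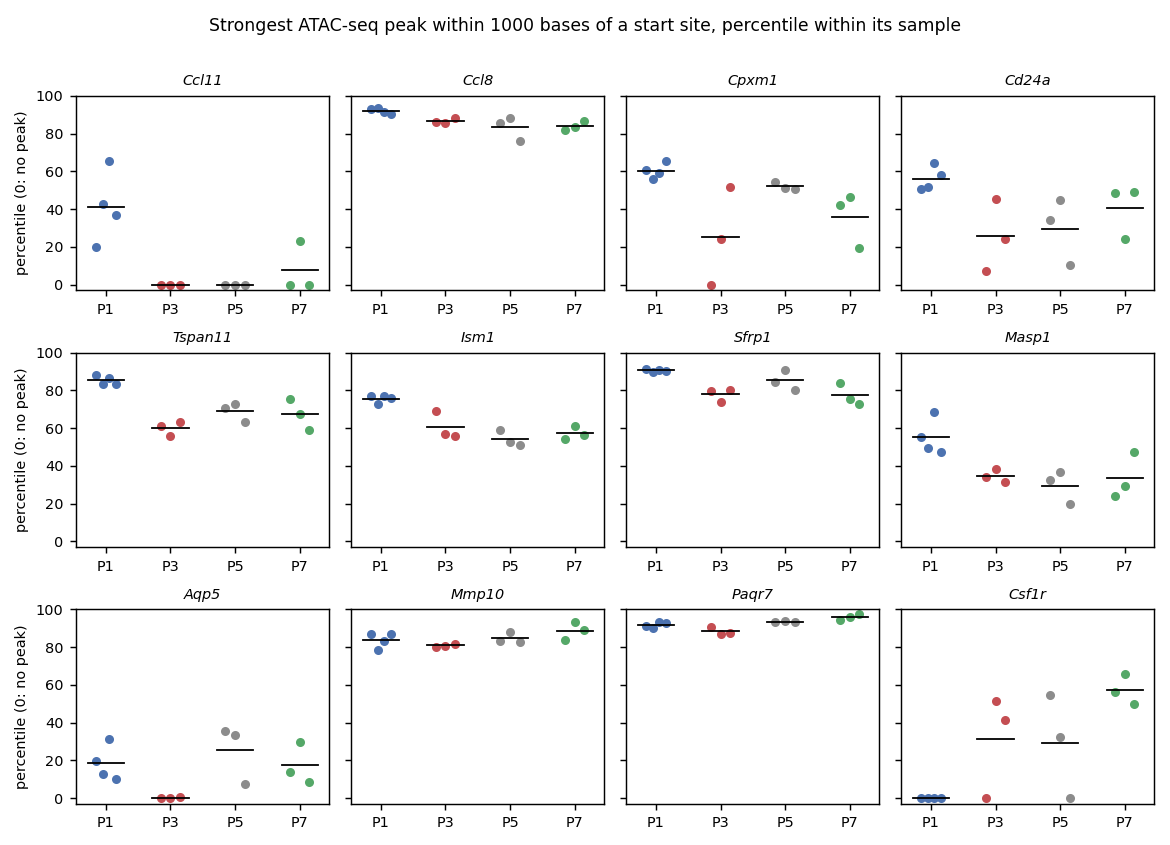
Percentile of the strongest ATAC-seq peak near a start site (vertical axis; 0 means no peak) in each sample (points) and its mean per passage (bar) for 12 members. Ccl11 and Aqp5 are at or near 0 in all P3 samples, and Csf1r has no peak at P1. Tspan11, Ism1 and Sfrp1 fall from P1 to P3 and lie below all their P1 samples at P7. Masp1 also falls from P1 to P3, and its highest P7 sample lies inside its P1 range.

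The number of peaks from 10 kb before to 10 kb after each member summed over the 30 to 187 to 204 at P1 and 168 to 185 at P3, then 200 to 218 at P5 and 198 to 239 at P7, while the samples themselves held 168982 to 186562, 142384 to 155681, 182402 to 207965 and 200376 to 231558 peaks. In 3 members all P3 samples had fewer such peaks than all P1 samples (6.28% of the genes over the floor) and in 6 fewer than all P7 samples (36.2%), and none had both (4.62%).

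The perturbation libraries were tested with edgeR's quasi-likelihood test, all p-values adjusted by Benjamini-Hochberg over all genes, with values as log2 fold changes of the treated against the control group ± SE. E2f4 itself stood at 1143 ± 38.6 CPM after overexpression against 41.6 ± 8.09 (SD, n = 2), and at 21.2 ± 0.736 after sh1 against 60.1 ± 0.878 (n = 3). Tead1 fell by 0.96 ± 0.04 with sh3 and by 0.78 ± 0.04 with sh4 on the log2 scale. Atf3 was low in its own control (3.01 ± 0.286 CPM, SD, n = 3), at 1.35 ± 0.836 with sh5 (-1.14 ± 0.39, edgeR adjusted p = 0.0447) and at 1.68 ± 0.329 with sh6 (-0.79 ± 0.39, edgeR adjusted p = 0.114). The libraries of both hairpins lay below all controls, but the fall with sh6 did not pass the test in these counts. By its methods the study also measured the knockdowns by RT-qPCR and immunoblot, which were not used here.

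After E2f4 overexpression 11 of the 27 members tested were called higher and none lower, where 7.69% of all 13199 genes were called higher and 10.4% lower. E2f4 is a cell-cycle transcription factor that acts mostly with repressive pocket proteins. With no fold limit, 15 members passed higher and 4 lower, where 28.9% and 28.2% of all genes did. The median member stood at 0.53 and the median gene at 0.01. Ccl8, Ccl11 and Mmp10 had too few reads in these libraries to be tested, with at most 0.522 CPM in any of the 4.

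Cxcl5 had 43.5 and 46.4 CPM with E2f4 against 9.37 and 6.195 in the controls, a change of 2.53 ± 0.18 (edgeR adjusted p = 4.86e-06), and Tspan11 33.6 and 32.9 against 4.95 and 5.68, a change of 2.66 ± 0.15 (edgeR adjusted p = 2.54e-06). Aqp5 rose by 1.44 ± 0.24, Tinagl1 by 1.08 ± 0.11, Pacsin3 by 1.22 ± 0.18 and Penk by 1.02 ± 0.34. Penk (0.884 to 2.18 CPM in the 4 libraries) and 4930413G21Rik were not called in DESeq2, where their adjusted p values were 0.1003 and 0.1106. Groups did not overlap in any of the 11 called members. With 2 libraries per group the same held for members that were not called, such as Ism1, Bace2 and Slc22a17. The share of all genes is not given, so nothing is read from this.

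The other 5 called members were among the 6 genes noted above for their split at P5, of which Ndufa1 was not called (0.47): 4930413G21Rik (10.7 and 11.7 CPM against 0.265 and 3.33), Naa38 (3.70 and 4.55 against 0.575 and 1.09), Atp5k (17.2 and 22.9 against 2.03 and 7.29), Polr2l (41.7 and 44.9 against 12.9 and 13.7) and Rps28 (87.1 and 106 against 28.5 and 52.7). The control libraries differed from each other by more than 3-fold in Atp5k and 4930413G21Rik. In the same comparison all genes of 54% exonic GC or more had a median of 0.47 and those under 45% one of -0.64, and short genes other than the members took 1.46% and 1.55% of the counts after overexpression and 1.03% and 1.06% in the controls. With the median of genes of the same length and GC class subtracted, 6 members remained higher (Cxcl5, Tspan11, 4930413G21Rik, Atp5k, Naa38 and Polr2l), against 4.49% of all genes. Cpxm1 and Csf1r, at -0.86 and -0.81 before subtraction, then passed the 2-fold limit downward, against 6.40%. The adjusted p was that of the change before subtraction, and the deviation from the class was not tested.

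Some members were also higher after E2f4 knockdown, for which only the hairpin sh1 had RNA-seq libraries. With sh1, 7 of 27 members were called higher and none lower, where 1.46% and 0.211% of 12310 genes were. Myh11 went from 88.1, 100.3 and 96.6 CPM to 171, 203 and 207 (1.03 ± 0.08, edgeR adjusted p = 1.67e-06), Csf1r from 4.67, 3.16 and 5.31 to 10.8, 9.18 and 10.7 (1.22 ± 0.21, edgeR adjusted p = 0.00102), and Penk from 0.584, 0.395 and 0.0965 to 1.43, 1.64 and 1.52. Penk, Atp5k, Naa38 and Rps28 were called higher in both E2f4 experiments, 4 of the 11 and 4 of the 7, and the experiments had separate controls. Over the 12227 genes tested in both, 0.237% were called higher in both. Each of the 4 lost a call under an alternative: Penk lost that of overexpression and Atp5k that of sh1 in DESeq2 (adjusted p = 0.1003 and 0.0802), DESeq2 gave no adjusted p for Rps28 with sh1, and Naa38 lost that of sh1 in 4 of the fits that left out 1 library.

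The calls of the short members depended on single libraries here. Rps28 had 7.88, 8.30 and 14.5 CPM in the controls and 18.7, 20.99 and 184 with sh1, Atp5k 3.79, 3.85 and 5.50 against 5.73, 8.75 and 22.4, and Ndufa1 5.84, 4.94 and 8.88 against 10.51, 14.4 and 26.0. The library sh1 replicate 3 was far above the rest in each, and it also had 1.58% of its counts in other short genes, where the other 5 libraries had 1.06% to 1.16%. Without sh1 replicate 3 only Penk and Csf1r were called higher. Leaving out non-targeting replicate 1 or replicate 2 left 3 called, and Atp5k, Naa38 and Rps28 lost their calls in both of these fits. Without sh1 replicate 3 Myh11 (0.98), Rps28 (0.96), Ndufa1 (0.93) and Atp5k (0.72) still had an edgeR adjusted p under 0.05 and were lost only to the 2-fold limit, while Naa38 (0.67) had an edgeR adjusted p of 0.162.

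Tead1 is the TEAD factor through which YAP and TAZ act. With sh3, 3 of 30 members were called higher (1.99% of 13012 genes) and 1 lower (0.722%), and with sh4 1 was called higher (1.01%) and none lower (0.523%). Without non-targeting replicate 2 or sh3 replicate 1, 5 were called higher with sh3, and without non-targeting replicate 1 or sh3 replicate 1 none was called lower. With no fold limit 7 members passed higher and 6 lower with sh3 (17.6% and 17.7% of all genes), and 4 and 6 with sh4 (14.4% and 14.7%). The hairpins share their control libraries, so their values are set side by side. By the study's hairpin sequences sh3 and sh4 target the same stretch of Tead1, shifted by 1 base. Agreement between them is therefore not independent. Aqp5 had 1.78, 1.02 and 1.49 CPM in the controls, 4.92, 5.43 and 5.22 with sh3 and 3.99, 4.09 and 3.07 with sh4, which gives 1.85 ± 0.22 (edgeR adjusted p = 6.54e-08) and 1.36 ± 0.23 (edgeR adjusted p = 2.85e-05).

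Ccl11 had 0.974, 1.25 and 0.566 CPM in the Tead1 controls, 2.52, 2.91 and 4.35 with sh3 and 1.29, 1.05 and 1.24 with sh4, so that the call with sh3 (1.81 ± 0.31) had no counterpart with sh4 (0.37). Tspan11 was called with sh3 (1.05) and stood at 0.49 with sh4, and Atp5k was called lower with sh3 (-1.03) and stood at -0.73 with sh4. Below the 2-fold limit Tinagl1 (1.00 and 0.54) and Cxcl5 (0.92 and 0.74) had adjusted p values under 0.05 upward with both hairpins, and Myh11 (-0.57 and -0.50), Slc22a17, Stc1 and C1qtnf2 downward. How many of all genes passed with both Tead1 hairpins is not given, so nothing is read from this agreement.

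With the Atf3 hairpins the members changed in both directions, and the 2 hairpins differed in several of them. Which of these changes followed from lower Atf3 was not tested. Atf3 is a stress-induced factor of the ATF and AP-1 family. With sh5, 4 of 30 members were called higher (1.38% of 13345 genes) and 9 lower (3.82%), and with sh6 4 were called higher (4.83%) and 6 lower (10.9%). The hairpins again share their controls. Replicate 3 of sh5 stood apart from replicates 1 and 2, with a chi-square over its degrees of freedom of 59.4 and 63.7 across genes, where replicates 1 and 2 had 3.29 against each other. Without it 2 members were called higher with sh5, and Ism1 (0.94), Ccl11 (0.96) and Slc22a17 (-0.76) were lost to the 2-fold limit.

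Tinagl1 had 34.99, 35.8 and 36.8 CPM in the controls, 10.1, 10.9 and 12.4 with sh5 and 7.47, 5.91 and 4.40 with sh6 (-1.69 ± 0.16 and -2.54 ± 0.17, edgeR adjusted p = 0.000144 and 1.3e-06). Sncg had 4.06, 4.96 and 5.31 CPM in the controls, 0.386, 1.39 and 1.15 with sh5 and 0.736, 1.28 and 1.03 with sh6. The groups did not overlap in either gene. For all genes the share called with both Atf3 hairpins is not given, so nothing is read from the agreement of the hairpins. Myh11 moved in opposite directions, from 45.8, 54.1 and 49.7 CPM in the controls to 14.1, 18.1 and 22.0 with sh5 (-1.47 ± 0.14, edgeR adjusted p = 0.000131) and to 187, 175 and 181 with sh6 (1.91 ± 0.13, edgeR adjusted p = 1.72e-06).

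The chemokines and Mmp10 also split by hairpin. Mmp10 had 0.471, 0.0551 and 0.188 CPM in the controls (11, 1 and 4 reads), 0.496, 0.516 and 1.38 with sh5 and 19.1, 17.1 and 16.3 with sh6 (337, 295 and 285 reads). Ccl8 had 2.70, 2.54 and 2.02 CPM in the controls, 2.31, 1.91 and 0.745 with sh5 and 7.81, 7.31 and 8.23 with sh6 (1.73 ± 0.29 for sh6, edgeR adjusted p = 0.000637). Ccl11 was called only with sh5, at 7.77, 6.19 and 11.9 CPM against 4.36, 3.69 and 2.87. Ccl2 was called with neither.

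With sh5 Cd24a (92.0, 77.0 and 128 CPM against 35.4, 31.7 and 32.3), Ism1 and Stc1 were also called higher, and Atp5k, Naa38, 4930413G21Rik, Slc22a17, Rps28 and Pacsin3 lower. The groups overlapped in Naa38, whose call was lost in 5 of the alternatives. With sh6 C1qtnf2 was called higher and Cpxm1 (31.5, 24.4 and 30.9 CPM against 63.5, 63.5 and 71.0), Tspan11, Csf1r and Sfrp1 (103, 87.4 and 140 against 316, 283 and 289) lower. Genes of 54% exonic GC or more had a median of -0.45 with sh5 and those under 45% one of 0.35, and the short genes took 1.04% to 1.27% of the counts with sh5 and 1.19% to 1.36% in the controls. After the class medians were subtracted, 2 members remained higher (Ism1 and Cd24a, 0.976% of all genes) and 7 lower (1.71%) with sh5. With sh6, 3 were higher (5% of all genes) and 7 lower (10%). The adjusted p was again that of the change before subtraction. The part of GC content in these counts was not otherwise tested.

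**Figure D5:**
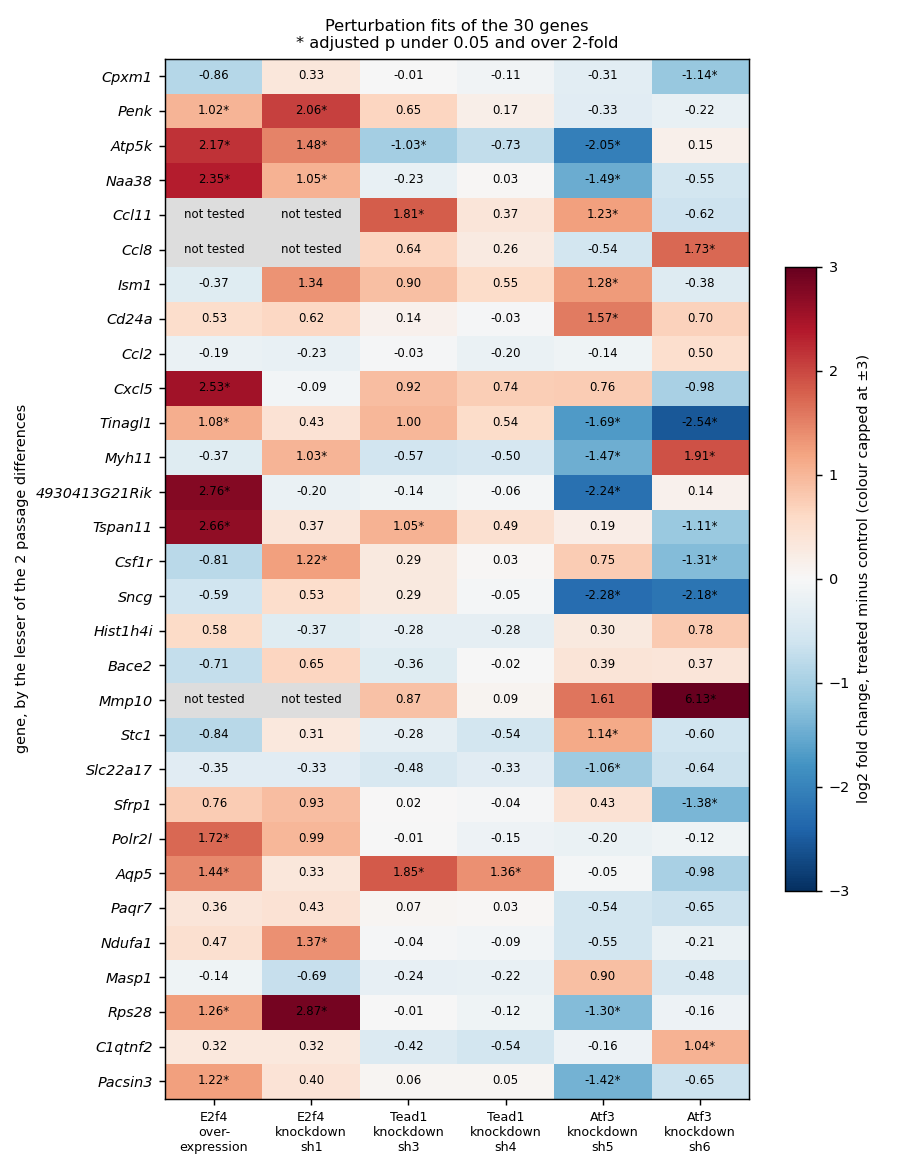
Log2 fold change (colour and printed value) of each member in the 6 perturbation comparisons; an asterisk marks an adjusted p under 0.05 with a change over 2-fold, and grey cells were not tested. E2f4 overexpression and sh1 hold only upward calls (11 and 7), Aqp5 is marked with both Tead1 hairpins, Tinagl1 and Sncg are marked lower with both Atf3 hairpins, and Myh11 is marked in opposite directions.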

How the data were processed

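RNA-seq count files of 16 passage and 28 perturbation libraries and ATAC-seq peak files of 13 samples were used. Methylation data were not used here. By the study's methods RNA was extracted with TRIzol and sequenced as pairs, and the deposited files hold raw read counts per gene that the authors made with HISAT2 on mm10 and HTSeq without strand. The submitters' processing notes name HISAT2 2.2.1, HTSeq 0.12.4, Trimmomatic 0.39, Bowtie2 2.3.5.1 and MACS2. The authors called peaks per sample, and the deposited peak files hold for each peak the −log10 p, the −log10 q and the fold enrichment over background. Summary lines that name no gene, 7.50% to 16.8% of the reads of a perturbation file, were left out. The counts left summed to 13430229 to 15725823 per passage library, 17433172 to 27552949 for E2f4 overexpression, 9147324 to 10467751 for E2f4 knockdown, 17460990 to 19440415 for Tead1 and 17245955 to 23380496 for Atf3.

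The members and gene lists were chosen with earlier results of these data known. CPM was the count over the library sum, with a pseudocount of 1. Tests used edgeR 4.0.16 (R 4.3.3; TMM, filterByExpr, glmQLFit and glmQLFTest, 1 fit per experiment, no covariates), with Benjamini-Hochberg adjustment over all tested genes and a call at an adjusted p under 0.05 and a change over 2-fold. The step was tested on simulated data. Alternatives were DESeq2 1.42.0, DESeq2 size factors, no count filter, a replicate block, only the 2 groups compared, leaving out each library, other floors, thresholds and peak measures, and, chosen after seeing the data, subtraction of length and GC class medians. The length limit of 600 bases, the gene families, the mirrored rule and the 6 genes plotted by library were also chosen after seeing the data. Percentiles, distances and lengths came from the deposited peaks and the RefSeq annotation of GRCm38.p6, in which 24870 of 24984 gene names were found by current or older symbol. ATAC-seq groups were compared by exact permutation tests.

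Named genes were the 16 members with the largest lesser difference, the 4 genes nearest the limit on each side, list members, the 4 highest and 4 lowest called members per comparison, members called with both hairpins, the targeted genes, the 5 highest and 5 lowest in P5 position, and members with a promoter peak lowest at P3. The remaining members were named so that each is accounted for. Replicates of a group differed by more than counting noise (chi-square over degrees of freedom 2.75 to 63.7 in 50 pairs), so each library was counted as 1 sample. In no comparison with 3 or more pairs did the deviations of same-numbered libraries correlate above 0.1 in every pair (range -0.262 to 0.276), so the fit has no replicate block. All pairs of P3 against P1 were positive, at 0.0785 to 0.267, and whether the passage libraries are paired is not known.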

Additional observations from a re-analysis of the deposited data

Results flagged for a closer look

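Of 150 groups of 4 libraries or samples, 9 held 1 value far from the other 3 for its range, and chance flags about 1 in 20 groups. At P7 replicate 1 was far above the others in Atp5k (31.8 CPM against 18.7 to 19.6), Ndufa1 (38.87 against 22.7 to 25.4) and Pacsin3 (32.53 against 25.7 to 26.6), and the same library had 1.92% of its counts in short genes other than the members, the highest share of the 16. Naa38 had 4.836 CPM in P3 replicate 1 against 0.939 to 1.10 in the other P3 libraries. Hist1h4i had 3.17 CPM in P3 replicate 2 against 4.03 to 4.18.

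Aqp5 stood apart at 6.35 CPM in P1 replicate 3 against 4.93 to 5.12, and at 6.957 CPM in P5 replicate 4 against 3.24 to 3.78. For promoter peaks, Ccl2 had a percentile of 83.39 in P1 sample 1 against 88.9 to 89.8, and Stc1 one of 64.19 in P1 sample 4 against 69.8 to 70.9.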

How the results depend on the processing

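The rule found 26 to 44 genes when 1 passage library was left out, with 44 without P3 replicate 1, and 17 with a limit of 1 in place of 0.8, all of them members. It found 26 with TMM-scaled CPM (23 shared), 34 with a pseudocount of 0.5 42 with a CPM floor of 1 (all 30 shared in both), 22 with a floor of 10, and 28 with length and GC trends removed (22 shared). With 1 library left out, E2f4 overexpression held 9 to 11 members called higher and 0 to 1 lower (1 without E2f4_OE replicate 2), and sh1 2 to 8 higher (3 without E2f4_nt replicate 1 or 2, 2 without sh1 replicate 3) and 0 lower. Tead1 sh3 held 2 to 5 higher (5 without Tead1_nt replicate 2 or sh3 replicate 1) and 0 to 1 lower (0 without Tead1_nt replicate 1 or sh3 replicate 1), and sh4 held 1 and 0 each time. Atf3 sh5 held 2 to 5 higher (2 without sh5 replicate 3) and 7 to 9 lower, and sh6 3 to 4 and 6 to 7. With class medians of length and GC subtracted, E2f4 overexpression held 6 higher and 2 lower, and sh1 6 higher (1.42% of all genes) and 0 lower (0.187%). Tead1 sh3 held 4 higher (1.95%) and 1 lower (0.708%), and sh4 1 higher (0.985%) and 0 lower (0.493%). Atf3 sh5 held 2 higher and 7 lower, and sh6 3 and 7. With members chosen on TMM-scaled CPM, Tead1 sh4 held 0 higher, because Aqp5 was then no member. Promoters lower in all P3 than in all P1 samples numbered 5 by fold enrichment in place of 12 by percentile, and 12 to 14 without 1 sample. Members with fewer peaks around them at P3 numbered 7 in place of 3 among peaks of −log10 q of 5 or more. P3 samples held 97548 to 122647 peaks of that strength and P1 samples 136735 to 150296. The share of all genes at that cut is not given, so nothing is read from the 7. The cause of the changes in peak counts was not tested. Of the calls on named genes under the alternatives, 509 held, 40 were lost (36 with 1 library left out) and 0 reversed. Low counts kept Ccl8, Ccl11 and Mmp10 out of the E2f4 overexpression test, which had arms of 2 libraries. Where leaving out a library left 1 in an arm, that library was assumed to vary like the other group.

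With the replicate number as a replicate block, E2f4 overexpression held 11 higher, sh1 7, Tead1 sh3 3 higher and 1 lower, sh4 1 higher, Atf3 sh5 4 higher and 9 lower and sh6 4 and 6, the same counts as without it. It also left the chemokine counts at 7 lower and 5 higher (6 to 7 and 5 to 7 with 1 library left out). Same-numbered libraries correlated at -0.158 to 0.142 between the groups of a perturbation comparison, so these numbers were not taken to pair the perturbation libraries.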
